A study of Homo sapiens with 4 samples.

Results

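CEBPB peaks that both ChIP experiments marked, but that were left out of the authors' table of reproducible peaks, numbered 35397. They were selected by the overlap of intervals, in the hg19 build. To be taken, a peak of CEBPB ChIP replicate 1 had to lie on chromosomes 1 to 22 or X. It had to overlap a peak of CEBPB ChIP replicate 2 by at least 1 bp. It also had to overlap no interval of the table of the irreproducible discovery rate (IDR). What the table holds depends on the values of the peaks, so membership does too. The peaks so selected made up 57.5% of the 61602 replicate 1 peaks shared with replicate 2 (95% exact binomial interval 57.1 to 57.9%). They were 47.1% of all 75169 replicate 1 peaks (interval 46.7 to 47.4%). The other 26205 shared peaks overlapped the table and are called table peaks here, while the 35397 are called left-out peaks. A further 77 replicate 1 peaks overlapped the table without a partner in replicate 2, and 13490 were found in neither of the other lists.

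The cells were NCM460, a line of human colon epithelium with no gene change or treatment named in the labels. The series has 2 ChIP samples, immunoprecipitated with an antibody to CEBPB, and 2 input samples, which are sheared chromatin sequenced without immunoprecipitation. Replicates 1 and 2 are separate experiments on the same line, per the labels. Each ChIP sample has its own list of peaks called against input, 75169 in replicate 1 and 97829 in replicate 2.

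CEBPB belongs to the C/EBP family of transcription factors, which have a basic leucine zipper. It binds DNA as a homodimer or with another family member, recognises the C/EBP motif, and is known for its part in inflammatory gene expression and in the differentiation of epithelial, fat and myeloid cells. In ChIP-seq, sites differ widely in how many fragments pile up on them, and IDR is a method that ranks the peaks of each replicate and keeps those whose ranks match well at the top of both lists. A peak called in both replicates can therefore be missing from an IDR table. Membership here was chosen by values of the same lists that are described next, so levels of left-out and table peaks are set side by side as a description and carry no test.

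Left-out peaks were lower and narrower than table peaks in both experiments. Their median fold over input, the authors' ratio of ChIP to background at the summit, was 6.01 in replicate 1 (quartiles 4.77 and 7.44), against 15.1 at table peaks (lower quartile 10.9). In replicate 2 the median fold was 6.45 at left-out peaks (quartiles 5.00 and 8.13) and 15.9 at table peaks (lower quartile 11.7). The replicate 1 summit of a left-out peak rested on a median of 20 fragments, meaning extended ChIP reads that cover the summit (quartiles 15 and 28), whereas a table peak had 57 (quartiles 36 and 92). In replicate 2 these medians were 29 fragments at left-out peaks and 76 at table peaks. The middle ranges of the groups did not overlap for fold or for fragments in either replicate.

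The input background, the number of fragments expected at the summit from the input, was close to equal in the groups. Its median was 2.1 at left-out peaks and 2.23 at table peaks in replicate 1, and 2.76 at left-out peaks and 2.68 at table peaks in replicate 2. A background of at least 5 was found at 12.4% of left-out peaks and 12.9% of table peaks in replicate 1. The medians of fold thus differed with the height of the pileup while the medians of background stayed near each other. Left-out peaks were 224 bp wide at the median in replicate 1 and table peaks 347 bp, and in replicate 2 the widths were 243 bp for left-out peaks and 362 bp for table peaks. Left-out peaks covered 9.06 Mb in all, and table peaks covered 10.3 Mb although they are fewer. In density, left-out peaks came to 11.7 per megabase and table peaks to 8.63.

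Set beside peaks that replicate 2 did not share, left-out peaks were somewhat stronger. The 13490 peaks found in replicate 1 alone had a median fold of 4.96 (quartiles 4.04 and 6.05), 15 fragments and a width of 191 bp. Their quartile range overlapped that of the left-out peaks in fold and in fragments.

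Nearly all left-out peaks lay below the lowest fold of the table's sources in at least 1 replicate. Each entry of the authors' deposited table names the interval it took from each replicate list, and the lowest fold among these sources was 7.44 in replicate 1 and 8.05 in replicate 2. Of the left-out peaks, 18792 (53.1%, interval 52.6 to 53.6%) were below the floor in both replicates, with median folds of 5.20 and 5.48 in replicates 1 and 2. Another 7875 were below it in replicate 1 only. Median folds of this class were 5.87 in replicate 1 and 9.93 in replicate 2, on 20 and 40 fragments. The mirror group, below the floor in replicate 2 only, held 7334 (20.7%). Median folds there were 9.27 in replicate 1 and 6.19 in replicate 2, on 28 and 29 fragments.

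The last 1396 left-out peaks (3.94%, interval 3.74 to 4.15%) were above the floor in both replicates. Most of them sat just inside the corner, with a median fold of 7.99 in replicate 1 (quartiles 7.65 and 8.66) and 8.69 in replicate 2 (quartiles 8.29 and 9.45). Their medians of 25 and 37 fragments were lower than the medians of table peaks. The floor is taken from the table itself, so these classes sort the left-out peaks and test nothing.

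**Figure D1:**
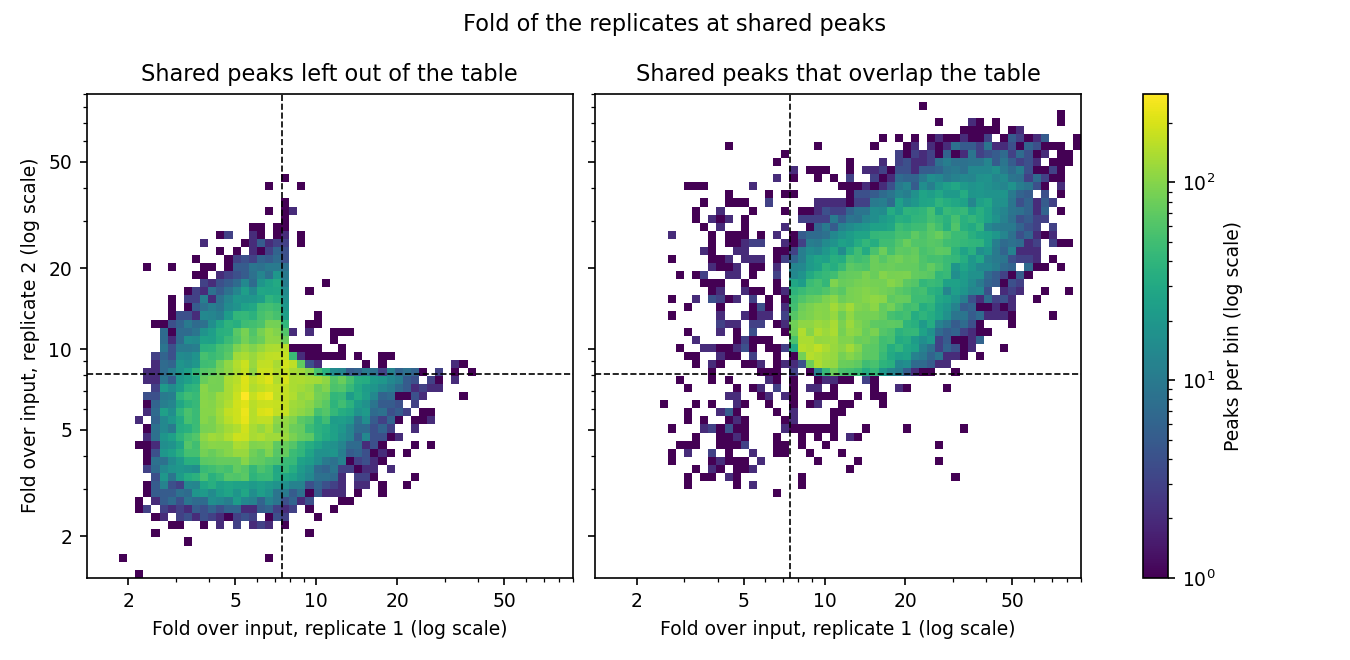
Fold over input of replicate 1 (horizontal, log scale) against replicate 2 (vertical, log scale) for 35397 left-out peaks on the left and 26205 table peaks on the right, coloured by the number of peaks per bin on a log scale. Dashed lines mark the lowest fold of a table source, 7.44 in replicate 1 and 8.05 in replicate 2; left-out peaks fill the area below either line, with a strip along each, and most table peaks lie above both.

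The share of shared peaks left out fell as fold rose. Shared peaks were sorted by replicate 1 fold into 10 classes of about equal size. In the 4 lowest classes, between 97.9% and 99.2% were left out. The share was 83.8% in the fifth (fold 6.98 to 8.23), 48.5% in the sixth (8.24 to 9.86) and 28.7% in the seventh. It was 14.4% at folds of 12.1 to 16 and 5.02% at 16 to 22.9. Membership depends on the values of the peaks, so this fall is a description. In the highest class, with folds from 22.9 to 86.1, 45 of 6162 shared peaks (0.73%, interval 0.533 to 0.976%) were left out. By fragments the slope was more gradual: 82.7% were left out among peaks of 20 to 23 fragments, 59.5% at 29 to 35 and 25.8% at 46 to 62. Over the 22190 table entries from peaks with a single summit in both replicates, the table's −log10 IDR followed the summed ranks of the folds most closely. The Spearman correlation was 0.983 for fold, 0.887 for −log10 p and 0.775 for fragments. These correlations run across sites of the same libraries, and the sources used here do not give the measure the authors ranked by.

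At one height, left-out peaks were those over a higher input background. Among shared peaks of 40 to 49 fragments in replicate 1, 66 of 798 (8.27%, interval 6.45 to 10.4%) were left out where the background was below 1.5 expected fragments. The share was 16.7% at a background of 1.5 to 2.5, 29% at 2.5 to 3.5 and 66.4% at 3.5 to 5.5, and 492 of 502 (98.0%, interval 96.4 to 99%) were left out at 5.5 or more. Replicate 2 showed the same order at 50 to 69 fragments, with 9.22% left out below 1.5 and 53.1% at 3.5 to 5.5. Fold is computed from fragments and background, so this grid restates the dependence on fold in its parts.

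**Figure D2:**
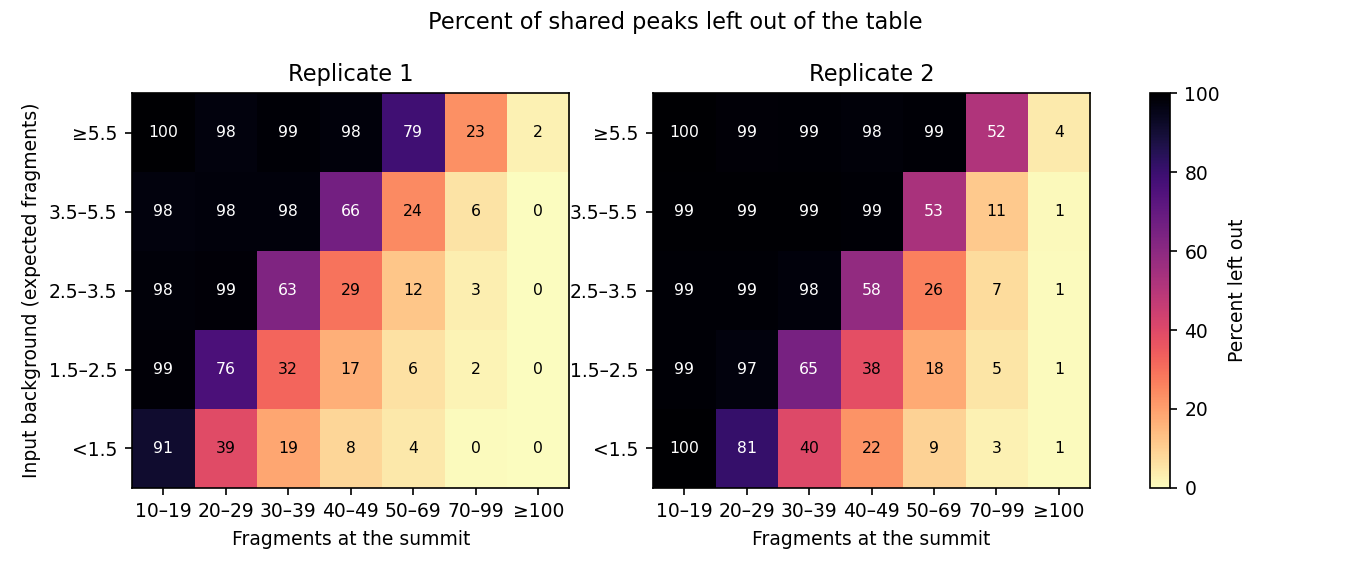
Percent of shared peaks that were left out of the table, by fragments at the summit (horizontal) and input background in expected fragments (vertical), for replicate 1 on the left and replicate 2 on the right; each cell prints its percent. The share left out falls toward the right and grows upward, for example 8.27% and 98.0% at the lowest and highest background for 40 to 49 fragments in replicate 1.

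Part of the gap in width between the groups went with height. At 10 to 19 fragments in replicate 1, the 15978 left-out peaks were 191 bp wide at the median (quartiles 167 and 231 bp) and the 800 table peaks 217 bp (quartiles 194 and 248 bp). At 20 to 29 fragments the 10657 left-out peaks were 234 bp wide and the 3306 table peaks 250 bp. The medians were nearer to each other at greater heights, without a constant order. At 30 to 39 fragments in replicate 1, the 4518 left-out peaks were 275 bp wide at the median (quartiles 232 and 351 bp) and the 3635 table peaks 280 bp (quartiles 250 and 341 bp). Their median background was 3.67 at left-out peaks and 2.00 at table peaks. The median distance between replicate summits was 15 bp at left-out peaks of that height and 11 bp at table peaks. Height was matched in replicate 1 only: in replicate 2 these left-out peaks had a median of 38 fragments and the table peaks 51. At 40 to 49 fragments left-out peaks were the wider ones, with a median of 313 bp against 310 bp at table peaks. The same held at 50 to 69 fragments, with 347 bp at left-out peaks and 343 bp at table peaks. At 70 to 99 fragments the 279 left-out peaks were 376 bp wide and the 4520 table peaks 390 bp.

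Over all heights, the replicates placed the summits of left-out peaks a median of 18 bp apart (quartiles 8 and 34 bp), against 8 bp at table peaks (quartiles 4 and 16 bp). Summits lay within 20 bp of each other at 55.5% of left-out peaks and 83.9% of table peaks, and within 50 bp at 86.2% of left-out peaks and 96.1% of table peaks. Overlap was part of the rule, so these distances are bounded by it. Left-out peaks mostly had a single summit: 90.5% had 1 in each replicate, as did 83.4% of table peaks. At least 2 summits in replicate 1 were called in 5.18% of left-out peaks and 10.6% of table peaks.

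Pairing of the intervals was nearly one to one. The left-out peaks overlapped 35227 distinct replicate 2 peaks, and 166 of them overlapped more than 1. In 15 cases the replicate 2 partner itself overlapped the table, so that the site is left out from the side of replicate 1 alone.

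The replicates ordered the left-out peaks weakly by fold. Across the 35397 left-out peaks the Spearman correlation of fold between replicates was 0.126, against 0.597 across table peaks. For fragments it was 0.554 at left-out peaks and 0.870 at table peaks, and for background 0.534 at left-out peaks and 0.593 at table peaks. The left-out peaks span a narrower range of fold and of fragments between their quartiles. Background does not differ so, with replicate 1 quartiles of 1.42 and 3.37 at left-out peaks and 1.53 and 3.52 at table peaks. The table was built on matching ranks, so the gap between the groups is a description of the selection. The SD of the log2 ratio of folds between replicates was 0.71 at left-out peaks and 0.59 at table peaks. At 5807 left-out peaks (16.4%) the folds differed at least 2 times between replicates, as they did at 2210 table peaks (8.43%).

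Fragments of the replicates were also compared peak by peak, with an exact binomial test against the running median share of replicate 1 among peaks of like height, adjusted by Benjamini-Hochberg over all shared peaks. This test compares 2 libraries with counting error only. A call says that the libraries differed at the summits compared, which can lie apart within the overlapping peaks. Of the 61602 shared peaks, 3.64% were called at an adjusted p of at most 0.05. Replicate 1 had the excess at 2.13% of shared peaks and replicate 2 at 1.5%. Of the left-out peaks 1191 (3.36%) were called, 851 (2.40%) toward replicate 1 and 340 (0.961%) toward replicate 2. Of the table peaks 1051 (4.01%) were called, 464 toward replicate 1 and 587 toward replicate 2. The IDR table used how well the replicates match, and nothing is read from these shares. The 851 left-out peaks called toward replicate 1 had medians of 46 and 26 fragments in replicates 1 and 2 and folds of 10.5 and 5.25. The 340 called toward replicate 2 had medians of 18.5 and 66 fragments and folds of 5.19 and 13.6. The other 34206 left-out peaks, 96.6% of them, were not called, with medians of 20 and 29 fragments.

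Among the called left-out peaks, the 3 with the largest excess of replicate 1 lay in bands 15q14, 4p15.1 and 12q21.1. The 15q14 peak, at chr15:39186166-39186954, had 45 fragments in replicate 1 and 11 in replicate 2, and folds of 11.4 and 3.61. The 4p15.1 peak, at chr4:30759106-30759477, had 33 and 9 fragments, and the 12q21.1 peak, at chr12:75258722-75259009, had 38 and 11. At all 3 the replicate 2 pileup was below 15 fragments, the 5th percentile of left-out peaks in that library.

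The 3 with the largest excess of replicate 2 lay in bands 6p21.31, 1p31.1 and 14q13.1. The 6p21.31 peak, at chr6:36585524-36585677, had 17 fragments in replicate 1 and 157 in replicate 2. The 1p31.1 peak, at chr1:78214630-78214782, had 11 and 97, and the 14q13.1 peak, at chr14:35017314-35017518, had 11 and 90. In these 3 cases the summits compared were not the same place: they lay 529, 409 and 665 bp apart, and the replicate 1 peaks were 154, 153 and 205 bp wide. Summits at the 3 sites with an excess of replicate 1 lay 57, 66 and 69 bp apart.

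The strongest left-out peaks were high in 1 replicate and just above or below the table's floor in the other. By mean fold of the replicates, the highest was a peak in 10q21.3, at chr10:69550793-69551046, with a fold of 7.42 in replicate 1 and 42.9 in replicate 2. It had 47 fragments over a background of 5.00 in replicate 1, and 178 fragments over 2.34 in replicate 2. Both the pileup and the background differed between the experiments at this site.

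The next were in 14q31.3 and 13q14.11. The 14q31.3 peak, at chr14:89217301-89217745, had folds of 8.70 and 39.3 in replicates 1 and 2, on 74 and 116 fragments over backgrounds of 7 and 1.39. The 13q14.11 peak, at chr13:43619479-43619878, had folds of 6.86 and 41.0, on 73 and 122 fragments over backgrounds of 9 and 1.4. At these sites the background differed more between replicates than the fragments did. Neither was called in the test of fragments.

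The other two had their high fold in replicate 1. The 17p11.2 peak, at chr17:19073496-19073771, had folds of 37.3 and 8.36 on 89 and 51 fragments, over backgrounds of 1.24 and 4. The 1p36.31 peak, at chr1:5777739-5778158, had folds of 35.6 and 8.60 on 96 and 74 fragments, over backgrounds of 1.53 and 6. At all 5 sites the replicate of lower fold had the higher background, and that background was a whole number of at least 4. Fold is computed from fragments and background, and the sites were picked by fold, so part of this order comes with the choice. A whole background is the value MACS2 takes when the input pileup at the summit itself exceeds the averages around it. It was found at 43.4% of left-out peaks and 43.3% of table peaks in replicate 1 (a whole number of 2 or more, within 0.002), and at 45.2% of left-out peaks and 43.4% of table peaks in replicate 2.

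**Figure D3:**
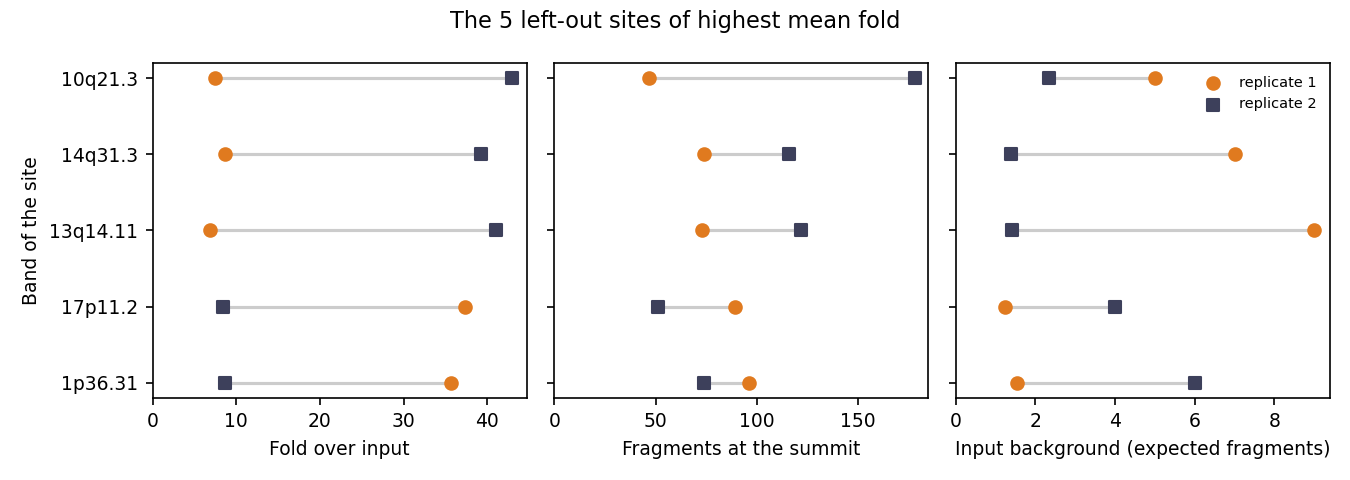
Fold over input, fragments at the summit and input background in expected fragments (from left to right) for the 5 left-out peaks of highest mean fold, named by band; orange circles are replicate 1 and dark squares replicate 2, with a grey line joining them. The replicate with the lower fold has fewer fragments and the higher background at all 5 sites, with backgrounds of 4 to 9. Fold is computed from these values, and the sites were picked by fold.

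How many left-out peaks were as strong as table peaks depended on the measure. By −log10 p, 3012 (8.51%) reached the 5th percentile of table peaks in both replicates (17.1 in replicate 1 and 21.4 in replicate 2). By fold 58 (0.164%) did, and by fragments 10270 (29%).

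Some left-out peaks were tall in both experiments. At least as many fragments as the median table peak, 57 in replicate 1 and 76 in replicate 2, were counted at 271 left-out peaks and 11361 table peaks. The 271 stood over median backgrounds of 7 in replicate 1 (quartiles 5 and 9) and 8 in replicate 2 (quartiles 6 and 10). The tall table peaks had 3.06 (quartiles 2.14 and 5) and 3.59 (quartiles 2.5 and 5). Both backgrounds were at least 5 at 173 of the tall left-out peaks (63.8%), and at 1406 of the tall table peaks (12.4%). Backgrounds of the replicates differed at least 2 times at 102 tall left-out peaks (37.6%) and at 2215 tall table peaks (19.5%). The larger of the backgrounds was a whole number at 255 of the 271, and at 8126 of the 11361 tall table peaks. Fold is computed from fragments and background, and the table follows fold most closely. A higher background at tall left-out peaks therefore comes with the selection, and these values describe it.

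The tall left-out peaks had median folds of 8.07 in replicate 1 and 7.92 in replicate 2, against 22.5 and 22.8 at tall table peaks. Of the 271, 38 (14%) were on the short arm of chromosome 5, which held 2.08% of all left-out peaks. The next arms were 14q with 22, and 1q and 10q with 18 each.

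By −log10 p instead of fold, the left-out peaks that ranked nearest the top of both lists lay in 10q11.22, 18p11.32 and 2p11.1. The first, at chr10:47057251-47058174, had 158 and 162 fragments in replicates 1 and 2, over backgrounds of 16 and 15, and folds of 8.67 and 8.16. The second, at chr18:108747-110010, had 257 and 291 fragments over backgrounds of 40.09 and 53.51, and folds of 5.82 and 4.29. The third, at chr2:91728530-91728890, had 176 and 142 fragments over 6 and 13, and folds of 23.4 and 8.18. All 3 had a background of at least 13 in at least 1 replicate.

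On the other side of the threshold, the table peaks of lowest rank by −log10 p lay in 3q12.3, 3p25.3 and 8q21.11. They had 9, 11 and 11 fragments in replicate 1, and their replicate 2 partners had 18, 67 and 234. The summits compared lay 30, 425 and 540 bp apart. None of the 3 is itself a source of a table entry: each overlaps a table interval that was built from other peaks, as do 470 table peaks in all. Among table peaks that are a source, the 3 of lowest rank lay in 9q21.32, 6q23.2 and 1p22.1. Their summits lay 453, 476 and 568 bp from those of the replicate 2 peaks they overlapped most. Those partners had folds of 4.33, 3.23 and 3.40, below 8.05, the lowest fold of a replicate 2 source. They are therefore not the peaks the table paired with these sources, and the ranks and distances depend on the pairing used here. The 3 left-out peaks next to the table had summits at most 7 bp apart, and these distances are not compared with those of the sources.

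A handful of left-out peaks stood over an extreme input background. A background above 20 expected fragments in either replicate was found at 14 left-out peaks (0.0396%) and at 0 table peaks, where the highest values were 17 in replicate 1 and 15.6 in replicate 2. Background lowers the fold, which the table follows most closely, so part of this contrast comes with the selection. Of the 14, 6 lay side by side in 18p11.32, near the tip of the short arm of chromosome 18. The tallest of them, at chr18:107879-108552, had 282 fragments in replicate 1 and 312 in replicate 2, over backgrounds of 122 and 173 and with folds of 2.13 and 1.44. Its neighbour at chr18:110225-110741 had 190 and 283 fragments over 89.00 and 139.00. A pair of left-out peaks in 10q26.3, at chr10:135500166-135500837 and chr10:135500991-135501208, shared a single replicate 2 peak of 134 fragments over 32.29. The folds of the 14 were between 1.97 and 7.02 in replicate 1 and between 1.44 and 7.31 in replicate 2.

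Left-out peaks were spread over the chromosomes broadly as table peaks were. Between 54.4% (chromosome 21) and 61.4% (chromosome 12, interval 59.8 to 62.9%) of the shared peaks of a chromosome were left out, and 56.5% on X. The interval lay above the share of 57.5% over all chromosomes on 5, 12 and 17, and below it on 2, 4, 8 and 16. In the classes of Giemsa stain, which darkens bands poor in genes, density was 14.5 left-out peaks per megabase in unstained bands and 7.74 in the darkest ones, against 10.8 and 5.81 table peaks. The ratio of these densities was 1.87 for left-out peaks (95% exact Poisson interval 1.81 to 1.94) and 1.86 for table peaks (interval 1.78 to 1.93). It was 2.05 for peaks found in replicate 1 alone (interval 1.94 to 2.18). From unstained to darkest bands, the share of shared peaks left out was between 56.8% and 58.7%. The intervals of left-out and table peaks overlapped, and they cover counting error over peaks, which are not independent of each other.

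Left-out peaks kept the same distances from table regions as table regions did from each other. The nearest table region lay within 25 kb of 57.3% of left-out peaks (interval 56.8 to 57.9%), with a median distance of 18.9 kb. For the 25602 table regions, another table region lay within 25 kb of 57.9% (interval 57.3 to 58.5%), with a median of 18.5 kb. Peaks of replicate 1 alone had 56.7% and 19.5 kb. At 0.5 of that distance the shares were 39.8% for left-out peaks (interval 39.3 to 40.3%) and 40.6% for table regions (interval 40 to 41.2%), and at 5 kb 22.6% for left-out peaks and 23% for table regions. From a left-out peak to another left-out peak the median distance was 13.6 kb. More than 100 kb from any table region lay 3771 left-out peaks (10.7%).

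**Figure D4:**
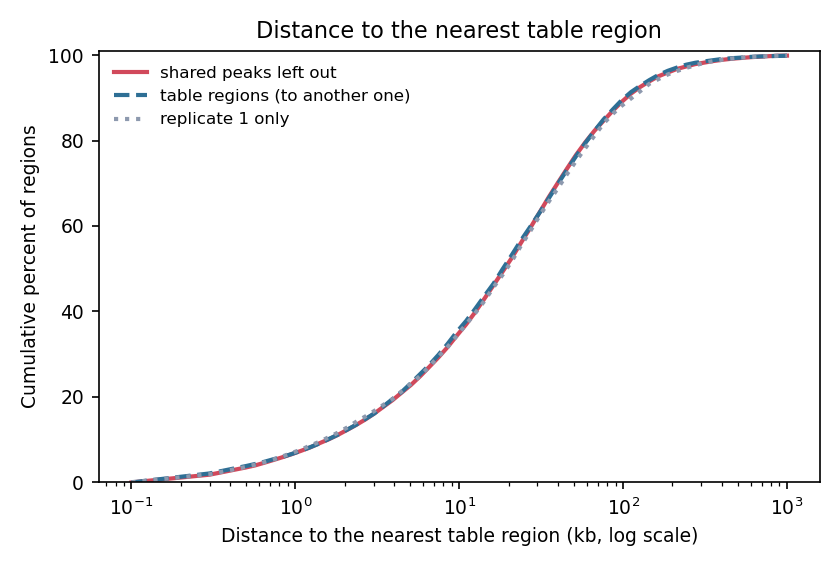
Cumulative percent of left-out peaks (solid red), of table regions (dashed blue, to another table region) and of peaks found in replicate 1 alone (dotted grey) by distance to the nearest table region in kb, on a log scale. The curves lie on each other, with medians of 18.9 kb for left-out peaks, 18.5 kb for table regions and 19.5 kb for peaks of replicate 1 alone.

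Fold at left-out peaks changed little with that distance. It was 5.85 at the median in replicate 1 for the 2445 left-out peaks within 1 kb of a table region, 6.04 at 25 to 100 kb and 6.20 beyond 100 kb. Fragments ran the other way, with medians of 24 within 1 kb, 19 at 25 to 100 kb and 17 beyond 100 kb in replicate 1, and 31, 28 and 25 in replicate 2.

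The share left out differed among chromosome arms, and it was higher on arms with more input background. On 5p, 738 of 1112 shared peaks were left out (66.4%, interval 63.5 to 69.1%), where the mean background at shared peaks was 4.63 in replicate 1 and 5.36 in replicate 2. On 12p it was 62.5% (interval 59.5 to 65.4%) at a mean background of 3.67 in replicate 1. On 18q, with the lowest mean background (1.75), 363 of 677 were left out (53.6%, interval 49.8 to 57.4%), and on 10p 52.7% at 2.14. Over 41 arms with at least 50 shared peaks, the share left out and the mean background of replicate 1 correlated with a Pearson r of 0.831 and a Spearman rho of 0.779. Leaving out 18q and 5p, which lie farthest from the median background, r was 0.745 and rho 0.745 over 39 arms. The arms share the same libraries, and background enters the fold by which the table ranks most closely, so both values are descriptions.

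**Figure D5:**
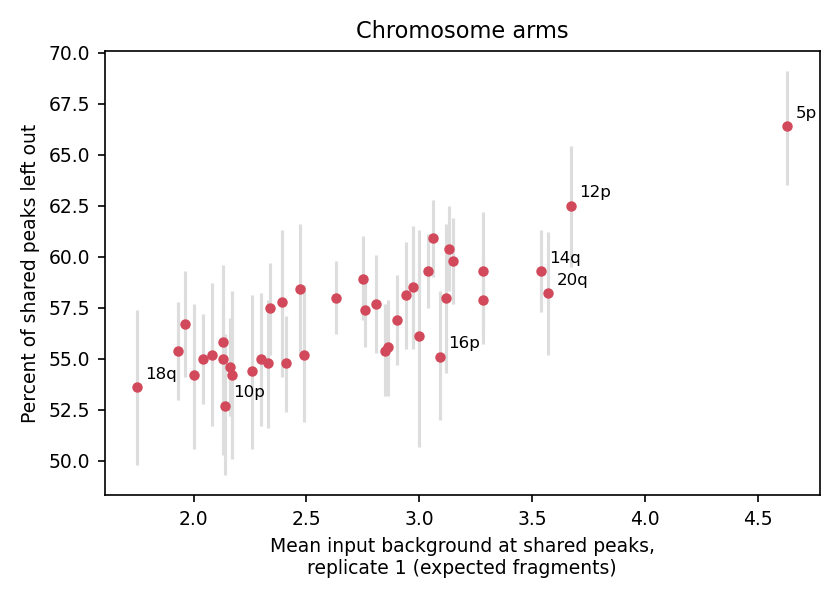
Percent of shared peaks left out of the table (vertical, with 95% exact binomial intervals as grey bars) against the mean input background at shared peaks in replicate 1, in expected fragments (horizontal), for 41 chromosome arms. The share grows with background, with 18q at 53.6% at the left end and 5p at 66.4% at the right end.

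Left-out peaks of 5p were taller than those elsewhere, yet lower in fold. Their median heights were 27 fragments in replicate 1 and 43 in replicate 2, over backgrounds of 4 and 5, with folds of 5.51 and 6.12. Those of 18q had 17 and 21 fragments over 1 and 1.36, with folds of 6.51 and 6.53. The density of left-out peaks was 15.2 per megabase on 5p and 5.96 on 18q, and that of table peaks 7.73 on 5p and 5.16 on 18q. Among shared peaks with at least 30 fragments in replicate 1, 326 of 689 were left out on 5p (47.3%), 44 of 273 on 18q (16.1%) and 26.6% on all chromosomes.

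There were 508 bands with at least 50 shared peaks. The interval of the share left out lay above the overall 57.5% in 19 of them and below it in 13. Together these were 6.3% of the bands. Intervals of 95% leave out the overall share in some bands by counting error alone. Whether 6.3% exceeds that part was not tested. The highest shares were in 5p15.2 (105 of 143, 73.4%), 1q22 (72.2%), 3q25.32 (72.0%), 10q21.3 (102 of 142, 71.8%) and 3q21.1 (71.7%). The lowest were in 2p16.2 (19 of 50, 38.0%), 4q32.3 (39.3%), 11q24.3 (41.5%), 8q24.13 (59 of 142, 41.5%) and 14q32.11 (43.1%). The interval was 65.4 to 80.5% in 5p15.2 and 24.7 to 52.8% in 2p16.2. These bands were picked as the extremes of 508, so part of their distance from the overall share comes with the choice.

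Bands of genes known for C/EBP biology or epithelial identity held left-out peaks in close to the overall proportion of 57.5%. In a list of 20 such bands, 1144 of 2081 shared peaks were left out (55.0%), and the median share was 54.6%, against 57.6% over all 508 bands. The interval lay above the overall share in 1 band of the list and below it in 2, and included it in the others. Unlike the 508, the list was not limited to bands with at least 50 shared peaks, and 2q14.1 held only 18. In 20q13.13, the band of CEBPB itself, 100 of 195 were left out (51.3%, interval 44.0 to 58.5%). In 19q13.11, which holds CEBPA and CEBPG, 28 of 57 were left out (49.1%), and in 8q11.21, which holds CEBPD, 42 of 73 (57.5%). These genes encode partners with which CEBPB can pair.

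The band of TRIB1, a pseudokinase that directs C/EBP proteins to degradation, is 8q24.13, which is among the lowest. The interval also lay below the overall share in 13q22.1, the band of the epithelial factor KLF5, with 27 of 62 left out (43.5%, interval 31.0 to 56.7%). The 1 band of the list counted above it was 12q13.13, with the type II keratins and the HOXC genes, where 120 of 185 were left out (64.9%, interval 57.5 to 71.7%) and the lower bound equals the overall share to 3 digits. In 17q21.2, with the type I keratins, it was 95 of 157 (60.5%), in 1q21.3, with the epidermal differentiation complex, 120 of 201 (59.7%), and in 3q28, with the basal epithelial factor TP63, 86 of 168 (51.2%). A band holds many genes, and no peak was assigned to a gene.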

How the data were processed

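CEBPB was mapped by ChIP-seq in 2 samples of NCM460 cells, with 2 input samples. The build is hg19, and the tools are MACS2 2.1.2, bedtools 2.25.0, SAMtools 1.9, FastQC 0.11.7 and Bowtie2 2.3.4, without settings, per the submitters' processing notes. The sources used here do not give how inputs were paired with ChIP samples. The deposited peak lists, called per sample in the MACS2 layout, hold a score, a fold over background (a ratio), and a −log10 p and −log10 q for each summit. The fold is the authors' own and describes peaks within each list. The authors' deposited table of the IDR holds 27544 entries with a global IDR of at most 0.05. Its intervals were rarely those of a source peak (0.0835% equal the replicate 1 source). Its 4 columns of per-sample values were not used.

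For each interval the summit of highest fold was taken, and a left-out peak was paired with the replicate 2 peak it overlapped most. Fragments and background were solved from the deposited fold and −log10 p, with the pseudocount of 1 that MACS2 adds to the scaled pileup and the background. With scales of 0.927 (replicate 1) and 0.800 (replicate 2), 100.0% of 81303 and 105225 summits gave whole fragments, within 0.005 on −log10 p. A background within 0.002 of a whole number was counted as whole. Background is on the scaled pileup and cannot fall below 1.00 in replicate 1 and 1.36 in replicate 2. Total reads are not in the lists, so depth is known only as fragments per summit. Binomial and Poisson intervals (exact, 95%) cover counting error only. Fragments were compared with exact binomial tests, two-sided, against the running median of 1001 peaks. Both steps were tested on simulated data. Bands of hg19 came from circlize 0.4.16 in R 4.3.3. Other tools were SciPy 1.17.1, pandas 2.3.3, NumPy 2.4.6, matplotlib 3.10.9 and Python 3.11.15.

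Named sites are the 5 left-out peaks of highest mean fold, the 3 called ones with the largest excess of each replicate, the 3 peaks on each side of the table by −log10 p (the smaller of the replicate ranks), the 5 bands of highest and lowest share, and a list of 20 bands. Peaks with a background above 20 and the arms were added after their values were seen. The left-out peaks and the list were chosen with earlier results of these data known. Promoters, motifs and sequences were not analysed, since no hg19 genome was used here.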

Additional observations from a re-analysis of the deposited data

Results flagged for a closer look

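Shared peaks outside the table were also present on sequences that the report leaves out, those outside chromosomes 1 to 22 and X. On unplaced or unlocalised sequences, 160 of 198 shared peaks were left out (80.8%, 95% exact binomial interval 74.6 to 86.0%), with medians of 50.5 fragments in replicate 1 over a background of 8 and a fold of 4.89. On alternative haplotype sequences, 145 of 304 were left out (47.7%, interval 42.0 to 53.5%), with medians of 18 fragments over a background of 1 and a fold of 7.42. The left-out peaks of unplaced sequences were thus tall over a high background, and 79 of them lay on a single sequence, where 83 shared peaks had a median background of 10. The part of the background in these shares was not tested.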

How the results depend on the processing

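Of 37 alternatives to the reported results, 19 stayed within 1.5 times the count or the error of the value, 18 moved and 0 reversed. The share left out, 57.5%, was 56.9% with summits within 100 bp of each other, 58.2% when matched by source interval and 74.1% at an IDR of at most 0.01. The median fold of left-out peaks in replicate 1, 6.01, was 5.59 without replicate 2 and 6.75 at the stricter IDR of 0.01. Leaving out a replicate, here and below, also drops the condition that a peak is shared. The 5.59 therefore also covers peaks found in replicate 1 alone. The number at table strength in both replicates depended on the definition: 3012 left-out peaks reached the 5th percentile of table peaks by −log10 p, 8740 the 1st and 259 the 25th. By fold the 5th percentile was reached by 58, and by fragments, chosen after seeing the data, by 10270. Calls between libraries, 1191, were 465 at an adjusted p of at most 0.01 and 902 for peaks with 1 summit in each replicate. The ratio of densities by stain, 1.87, ran between 1.59 and 1.92 without replicate 1 or 2. The share within 0.5 of 25 kb from a table region, 39.8%, ran between 35.0% and 39.7% without replicate 1 or 2; it was 27.8% at an IDR of at most 0.01, 22.6% at 5 kb and 57.3% at the full 25 kb. The median summit distance, 18 bp, was 17 bp for the closest summits and 17 bp for peaks with 1 summit. The rho over arms, 0.779, was 0.905 for peaks of at least 30 fragments in replicate 1, chosen after seeing the data. The causes were not tested. No paired analysis was possible because the left-out and table peaks are regions of the same pair of ChIP libraries and the inputs have no list of their own. With 1 pair of libraries, differences between groups of peaks have no error across experiments, and a pileup of a few fragments over a background of 1 or 2 gives an imprecise fold.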
